A study of Mus musculus with 4 samples.

Results

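Group 2 innate lymphoid cells (ILC2) were described in single-cell RNA-seq of leukocytes sorted from the mouse colon by CD45, the surface phosphatase that all leukocytes carry. ILC2 were chosen by their unique molecular identifiers (UMIs, 1 per captured transcript), and 113 of the 20428 barcodes kept in the 4 libraries met the rule. A barcode was kept with at least 500 UMIs, at least 200 genes and at most 10% mitochondrial UMIs. It was called an ILC2 with at least 2 UMIs summed over Il1rl1, Il17rb, Calca, Il5 and Il13 and at least 1 UMI of Gata3. It also had at most 1 UMI of Cd3e and Cd3d together and 0 of Cd79a, Cd79b and Cpa3, which mark T cells, B cells and mast cells or basophils. These 11 genes chose the cells, so their levels in ILC2 are given as a description with no test.

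The mice were wild-type C57BL/6. The control group holds 2 libraries from mice given the control treatment, and the stress group holds 2 libraries from mice under restraint stress for 7 days. The labels name no age, sex or number of animals per library. The spread behind every p-value is therefore that between libraries, and it may be technical. Controls 1 and 2 held 2546 and 5436 kept barcodes, and stress 1 and 2 held 8319 and 4127, with median depths from 2176 to 4559 UMIs. Fibroblasts, which lack CD45, made up 9.23% of control 1, and in the remaining libraries the highest share was 0.339%. Pairs of libraries shared between 3 and 19 barcode sequences, and 0 of them were ILC2 in both libraries.

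ILC2 are tissue-resident lymphocytes that lack antigen receptors and respond to alarmins, signals released by damaged or stimulated epithelium. The receptors for the alarmins IL-33 (Il1rl1) and IL-25 (Il17rb) sit on their surface, and the transcription factor GATA3 drives their production of the type 2 cytokines IL-5 and IL-13. In the gut they lie close to nerve fibres, and neuropeptides acting on their receptors are known to raise or restrain their output.

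Marker genes of ILC2 that the rule did not use were widely detected. Rora, a nuclear receptor needed for ILC2 development, was detected in 109 of 113 cells, and Il7r, a receptor chain that innate lymphoid cells share, in 101. Il7r is not particular to ILC2. In control 1, control 2, stress 1 and stress 2 it had 97, 632, 334 and 465 UMIs in CD4 T cells. In the NK/ILC1 cells defined below it had 104, 92, 81 and 72. Hs3st1, a heparan sulphate sulphotransferase, was detected in 83 cells, the lectin-like receptor Klrg1 in 76 and arginase Arg1 in 43. Most defining markers of other cells were at or near 0, while transcripts of plasma cells were not. The plasma cell genes Jchain, Igha, Igkc and Mzb1 summed to 75, 63, 71 and 131 UMIs in control 1, control 2, stress 1 and stress 2, in 41 of 53, 24 of 31, 17 of 17 and 12 of 12 ILC2, with Mzb1 at 1 UMI in all. Of the B cell list only Ighm and Ms4a1 had UMIs, at 13, 11, 5 and 2 together. The regulatory T cell list summed to 66, 82, 23 and 30 UMIs, of which 56, 48, 23 and 26 were Il2ra, and Foxp3 had 1 UMI in all. NK cell and ILC1 genes (Ncr1, Klrb1c, Klre1, Eomes, Tbx21, Gzma, Prf1) summed to 0, 1, 0 and 2 UMIs, and 6 of the 7 were at 0 throughout. ILC3 genes summed to 0, 1, 0 and 0 UMIs, with Il22, Il23r and Il17a at 0. The eosinophil and fibroblast lists were at 0 in all 4 libraries, as were Cd4, Cd8a, Cd8b1, Gata2 and the mast cell proteases Mcpt1, Mcpt2 and Mcpt8. Trbc1 and Trbc2, the constant genes of the T cell receptor beta chain, were detected in 79 and 78 of 113 cells, while Trac of the alpha chain had 3 UMIs in all, in control 1. Cd3g was detected in 12 cells and Kit in 35. Myeloid RNA was confined to few barcodes: the 5 monocyte and macrophage genes summed to 173, 1, 64 and 2 UMIs, and 2 barcodes held nearly all of it. One of them, in control 1, had 103 Lyz2 and 52 C1qa UMIs among 11428, and the other, in stress 1, had 62 Lyz2 UMIs among 10198. These were the deepest ILC2 of their libraries, and the second was also the only ILC2 that the doublet caller marked. Stress results that rest on them are given with and without them.

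ILC2 were fewer in both stress libraries than in both controls. The rule found 53 cells in control 1, 31 in control 2, 17 in stress 1 and 12 in stress 2. As a share of kept barcodes this was 2.08% in control 1 (95% Clopper-Pearson interval 1.56 to 2.71), 0.570% in control 2 (0.388 to 0.808), 0.204% in stress 1 (0.119 to 0.327) and 0.291% in stress 2 (0.150 to 0.507). Intervals here and below cover counting error only, and those of control 2 and stress 2 overlap. The means were 1.33% ± 1.07 in controls and 0.248% ± 0.0611 under stress (SD, n = 2), a 5.36-fold difference with a two-sided exact permutation p of 0.333, the smallest that 2 against 2 libraries allow. Control 1 carried much of the size: without it, control 2 stood 2.30-fold above the stress mean, and without control 2, control 1 stood 8.41-fold above it. That shortage was already known for these libraries when the cells were selected, and the test is not independent evidence of it.

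The denominator changed the size of the difference and not its order. Among ILC2, NK/ILC1 and T cells together, ILC2 made up 11.0, 2.19, 1.30 and 1.75% of control 1, control 2, stress 1 and stress 2. Here NK/ILC1 cells are those with at least 2 UMIs of Ncr1, Klrb1c and Klre1 and the same limits on T cell, B cell and mast cell genes. Among ILC2 and NK/ILC1 cells only, the share was 43.1% in control 1 (34.2 to 52.3), 27.4% in control 2 (19.5 to 36.6), 21.2% in stress 1 (12.9 to 31.8) and 25% in stress 2 (13.6 to 39.6). That comparison, added after seeing the data, gave a 1.52-fold difference of the means, since NK/ILC1 cells were also a smaller share of the stress libraries (0.757 and 0.872% of kept barcodes against 2.75 and 1.51%). Barcodes that met the plasma cell rule, at least 3 UMIs of Jchain and Mzb1, took 27.2 and 50.2% of the stress libraries. In the controls they took 16.1 and 10.5%. The rule excluded no other class, so these shares may count other cells that hold free Jchain RNA, which was not tested. CD4 T cells held 18, 73, 659 and 332 Jchain UMIs in control 1, control 2, stress 1 and stress 2, over 56, 265, 288 and 198 cells. Without B cells and barcodes that met the plasma cell rule, the ILC2 shares were 3.88, 1.38, 0.533 and 0.998%. ILC2 that met the plasma cell rule were left out as well, so 53, 31, 16 and 11 ILC2 were counted. All shares are of cells that passed a CD45 sort, whose part in them was not tested.

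**Figure D1:**
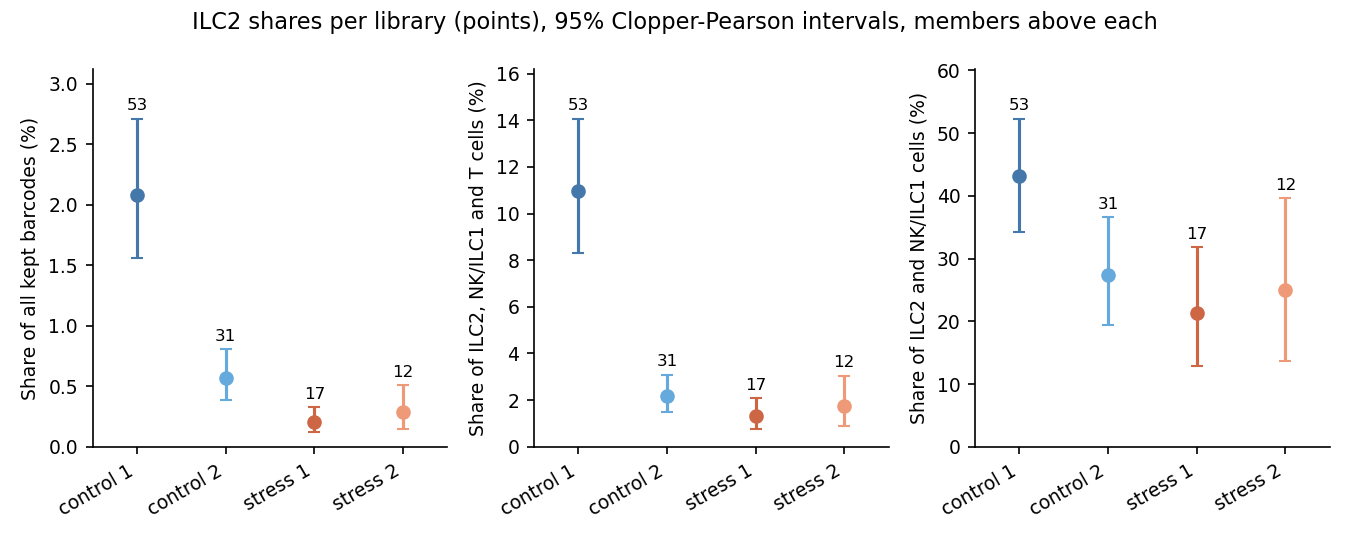
ILC2 as a percentage of all kept barcodes (left), of ILC2, NK/ILC1 and T cells (middle) and of ILC2 and NK/ILC1 cells (right) in each library, with 95% Clopper-Pearson intervals and the number of ILC2 above each point. Both stress libraries lie below both controls in each panel, and control 1 stands highest. The interval of stress 1 lies below that of control 2 in the left panel, and that of stress 2 overlaps it there.

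Depth touches any rule on UMIs. ILC2 had medians of 3391, 4073, 2296 and 5798.5 UMIs, so the shallowest and the deepest were both under stress. With barcodes thinned to 1000 UMIs, shallower ones left out (2393, 5161, 7518 and 3957 stayed), the rule found 15, 13, 7 and 4 ILC2, at 0.627, 0.252, 0.0931 and 0.101% of barcodes, in the same order of groups. Near the limits, 16 of the 53 ILC2 of control 1 had exactly 2 UMIs of the 5 signature genes, against 1 in control 2, 3 in stress 1 and 0 in stress 2. Just outside, 14, 8, 9 and 2 barcodes met every other condition with 1 signature UMI, and 18, 9, 6 and 3 met every other condition with 0 Gata3 UMIs. Barcodes with exactly 2 Cd3e and Cd3d UMIs that met the other conditions numbered 0, 1, 2 and 1, and those with 2 or more numbered 3, 7, 3 and 5.

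The signature genes were spread over the cells rather than held in common. Il1rl1, the IL-33 receptor, was detected in 80 of 113 ILC2 and Il17rb, the IL-25 receptor subunit, in 53, and 32 cells held both. Calca, the gene of calcitonin and of the neuropeptide CGRP, was detected in 58. Of the ILC2, 65 held a receptor and a product (Il5, Il13 or Calca), 36 held a receptor only and 12 a product only. Per library, Il1rl1 stood at 350, 627, 462 and 440 CPM (a gene's UMIs scaled to 1000000 UMIs summed over the ILC2 of a library), and Il17rb at 192, 215, 231 and 121 CPM. Gata3 stood at 1001, 908, 986 and 1289 CPM. For each of these 3 genes the stress libraries overlapped the range of the controls.

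Type 2 cytokine RNA was concentrated in few cells. Il5, the eosinophil growth and survival factor, had 47, 17, 19 and 28 UMIs in control 1, control 2, stress 1 and stress 2, in 12, 8, 6 and 4 cells. Il13, which drives mucus production and worm expulsion, had 41, 21, 17 and 36 UMIs in 11, 6, 4 and 2 cells. Both stress libraries were above both controls in CPM for these genes, at 399 and 425 against 257 and 140 for Il5 and at 357 and 546 against 224 and 173 for Il13. In stress 2, however, 34 of 36 Il13 UMIs came from 1 cell and 23 of 28 Il5 UMIs from another, and in stress 1 the highest cell gave 10 of 17 and 8 of 19. Over all libraries the 12 highest cells held 90.4% of the Il13 and 78.4% of the Il5 UMIs. Cells with both cytokines numbered 7, against 46 with either.

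**Figure D2:**
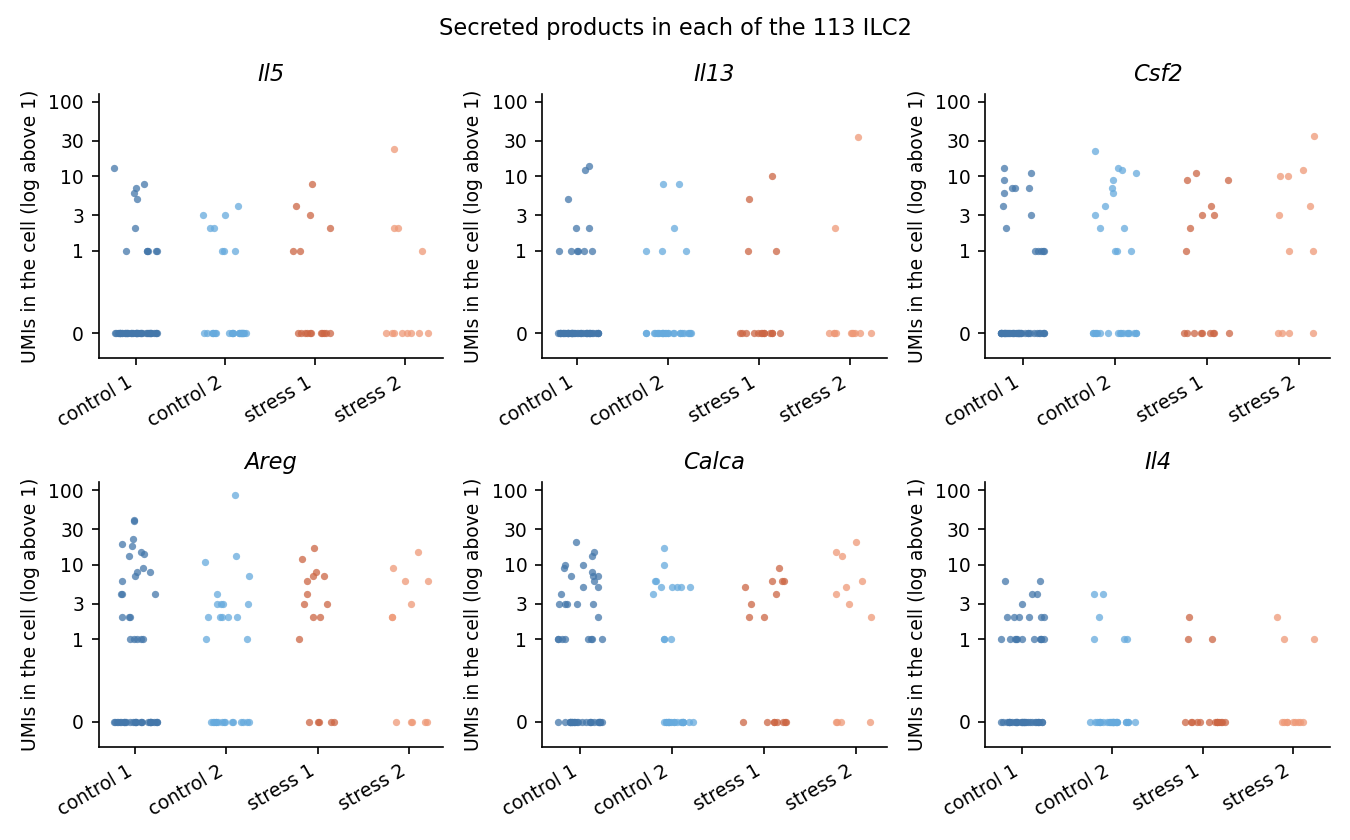
UMIs of 6 secreted products in each of the 113 ILC2, by library (points are cells, spread sideways, on an axis that is logarithmic above 1). Most cells held 0 Il5 and Il13 UMIs, and 1 cell of stress 2 held 34 Il13 UMIs while another held 23 of Il5.

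Il4, Il13, Il5 and Csf2 lie on mouse chromosome 11, with 12.7 kb between Il4 and Il13 and 86.1 kb, across the Rad50 gene, between Il13 and Il5. Csf2 lies 522 kb beyond Il5 (GENCODE vM21 on GRCm38). Windows of 250 bases before the annotated start, taken from RefSeq on GRCm38.p6, are printed for Il13, Il5 and the receptor Il1rl1, because the rule required Gata3 and the GATA family binds a short core word. The words searched on both strands were the form AGATAA with its variant AGATAG and the form TGATAA with its variant TGATAG, and 26.5% of 32851 windows of this length hold at least 1 of them. Capitals mark the matches, and none overlaps the other motif searched. The windows of Il13 (chr11:53634703-53634952, minus strand) and Il5 (chr11:53720544-53720793, plus strand) hold 1 each, 81 and 72 bases before the start, and that of Csf2 holds 1, at 247 bases. The window of the upstream of 2 Il1rl1 starts (chr1:40429320-40429569, plus strand) holds 5, between 54 and 217 bases before it. In all, 15 windows of 13 genes were searched and 7 held a word, those of Il13, Il5, Csf2, Calca, both of Il1rl1 and 1 of 2 of Il4. Those of Il17rb, Areg, Hs3st1, Ramp1, Ramp3, Cebpb and Rgcc held none. Each sequence reads 5′ to 3′ on the strand of its gene. A match is a description of letters and not of binding.
Il13: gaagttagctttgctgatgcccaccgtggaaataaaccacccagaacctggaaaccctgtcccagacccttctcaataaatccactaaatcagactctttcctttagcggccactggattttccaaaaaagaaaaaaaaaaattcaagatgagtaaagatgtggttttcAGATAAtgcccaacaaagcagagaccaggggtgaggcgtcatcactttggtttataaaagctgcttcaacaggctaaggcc
Il5: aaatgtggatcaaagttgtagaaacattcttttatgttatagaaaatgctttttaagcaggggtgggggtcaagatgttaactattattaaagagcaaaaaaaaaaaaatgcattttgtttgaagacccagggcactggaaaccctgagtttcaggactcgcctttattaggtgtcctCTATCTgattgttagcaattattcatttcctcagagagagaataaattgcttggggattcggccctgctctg
Il1rl1: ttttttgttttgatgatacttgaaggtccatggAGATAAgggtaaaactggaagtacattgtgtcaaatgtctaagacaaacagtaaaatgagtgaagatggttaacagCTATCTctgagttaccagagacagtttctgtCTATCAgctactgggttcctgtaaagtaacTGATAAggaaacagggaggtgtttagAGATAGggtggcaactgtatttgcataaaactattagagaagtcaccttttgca

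Products that the rule did not use were tested between the groups, and none passed. Areg, the epithelial growth factor amphiregulin, was detected in 59 cells and stood at 1319 and 1205 CPM in the controls and 1511 and 652 CPM under stress, so that the stress libraries lay on both sides of the controls (log2 change -0.24, SE 0.36, edgeR adjusted p = 0.977). In control 2, 87 of its 146 UMIs came from 1 cell. Csf2, the myeloid growth factor GM-CSF, was detected in 45 cells, at 405 and 776 CPM in controls and 881 and 1152 CPM under stress, without overlap (0.80, SE 0.36, edgeR adjusted p = 0.759). Il4, a type 2 cytokine better known from T helper cells, was detected in 34 cells and stood at 252 and 107 CPM against 84 and 60.7 CPM, also without overlap (-1.39, SE 0.57, edgeR adjusted p = 0.718). The share of all tested genes without overlap was not counted. Such separation of 2 against 2 libraries is therefore no result of its own, here or elsewhere in the text. Il2, a lymphocyte growth factor, had 23, 17, 4 and 3 UMIs and the chemokine Ccl1 35, 16, 3 and 5, with log2 changes of -1.08 and -1.22 that did not pass. Il9, Penk and Tph1 had 0 UMIs in all ILC2, and a count of 0 cells of 113 allows a share of cells with a UMI of up to 2.65%. Of the 17 products outside the rule, 14 had a UMI, 7 passed the filter on low counts and 0 were called (5 negative, 2 positive, median log2 change -0.24). The 1251 genes tested outside the rule had a median of -0.02. Cells with none of Il5, Il13, Csf2, Areg, Calca and Il4 numbered 9.

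Areg also shows a cAMP response element, the word TGACGTCA, in capitals 61 bases before its start (chr5:91139349-91139598, plus strand, GRCm38.p6), a word that 1.55% of windows hold. It is shown because amphiregulin was the product with the most UMIs in ILC2 (502 in all). The word was searched in the same 15 windows of 13 genes, and 1 window, that of Areg, held it.
Areg: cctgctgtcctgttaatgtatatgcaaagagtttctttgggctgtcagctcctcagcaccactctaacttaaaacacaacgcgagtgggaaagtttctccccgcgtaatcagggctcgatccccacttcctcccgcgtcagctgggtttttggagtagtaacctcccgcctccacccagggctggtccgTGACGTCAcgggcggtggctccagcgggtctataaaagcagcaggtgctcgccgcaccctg

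Neuropeptide signalling genes were few, and those for CGRP and its relatives led them. Calca, which helped to choose the cells, stood at 826 and 586 CPM in controls and 902 and 1031 CPM under stress. UMI counts per gene cannot separate its CGRP transcript from its calcitonin transcript. Ramp1 and Ramp3 encode membrane proteins that turn the receptor Calcrl into a receptor for CGRP or for adrenomedullin. Ramp3 (chromosome 11, 6658521 to 6677475) had 59, 48, 51 and 35 UMIs in control 1, control 2, stress 1 and stress 2, in 24, 18, 14 and 10 cells. Its level was 323 and 396 CPM in controls and 1070 and 531 CPM under stress. The stress libraries lay above the controls, and the change did not pass (log2 1.14, SE 0.36, edgeR adjusted p = 0.473). With every cell thinned to 1000 UMIs, 25, 22.6, 64.7 and 50% of ILC2 held a Ramp3 UMI (unthinned 45.3, 58.1, 82.4 and 83.3%). Among B cells the thinned share was 0.134, 0.599, 0.755 and 0%, from unthinned medians of 2066, 2308, 1556 and 3004 UMIs. B cells are only a rough guide to free RNA, which could not be measured. This class also leaves out barcodes that met the plasma cell rule.

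Ramp1 (chromosome 1, 91179822 to 91225196) had 30, 39, 4 and 14 UMIs, or 164 and 322 CPM in controls and 84 and 212 CPM under stress, so that the groups overlapped (-0.60, SE 0.52, edgeR adjusted p = 0.893). Ramp1 or Ramp3 was detected in 88 of 113 ILC2. Their partner Calcrl was rare, at 3, 1, 0 and 4 UMIs in as many cells, and 7 cells held it together with Ramp1 or Ramp3. Calca and Ramp3 were detected together in 43 cells. Nmur1, the receptor for neuromedin U that is known from intestinal ILC2, had 3, 1, 0 and 0 UMIs, and Vipr2, a receptor for vasoactive intestinal peptide, had 3, 0, 0 and 1. Adora2a, an adenosine receptor, had 10, 6, 0 and 4 UMIs. Of the 28 listed receptors and related genes, 17 had 0 UMIs in all ILC2, among them Nmur2, Vipr1, Ramp2, Adrb1, Chrm3 and Tacr1. Only Ramp1 and Ramp3 passed the filter on low counts, and neither was called.

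Nr3c1, the glucocorticoid receptor through which corticosterone acts, was detected in 98 of 113 ILC2, at 624, 652, 860 and 607 CPM, and the groups overlapped (0.19, SE 0.31, edgeR adjusted p = 0.977). Its targets Tsc22d3 (438, 223, 294 and 167 CPM), Dusp1 and Zfp36 did not pass either, with log2 changes of -0.60, 0.25 and 0.44. Of the 15 genes of the glucocorticoid list 6 passed the filter and 1 was called, Cebpb, with a median log2 change of 0.22, where 0.239% of all genes tested were called. That call was lost without the 2 Lyz2-rich barcodes (edgeR adjusted p = 0.469).

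**Figure D3:**
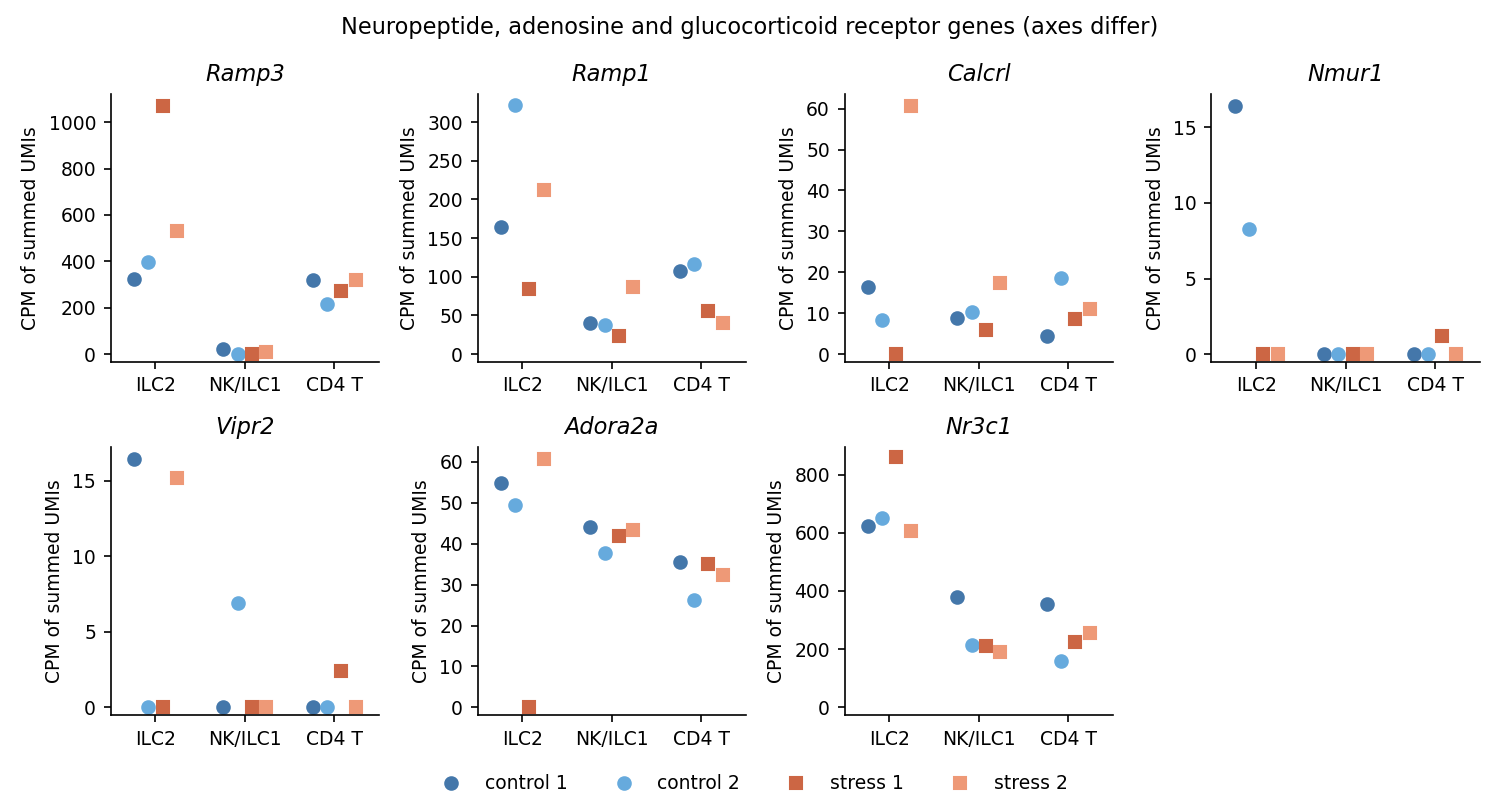
Levels of 7 receptor genes in ILC2, NK/ILC1 and CD4 T cells, in CPM of UMIs summed per class and library (circles are controls, squares stress libraries, and each panel has its own axis). Ramp3 and Nr3c1 stand highest in ILC2, the 2 stress libraries lie above both controls for Ramp3 in ILC2 but not for Nr3c1, and Calcrl, Nmur1 and Vipr2 stay at or below 60.7 CPM.

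The comparison of stress with control over all genes asks what restraint changed within ILC2. The edgeR quasi-likelihood test on UMIs summed per library called 3 of 1257 genes (0.239%), 2 higher (0.159%) and 1 lower (0.0796%) under stress. Before adjustment 81 had a p under 0.05. The sums were small, at 182749, 121120, 47647 and 65945 UMIs. Rgcc, a regulator of the cell cycle and of complement responses, fell from 925 and 462 CPM in controls to 63 and 91 CPM under stress (log2 -3.13, SE 0.47, edgeR adjusted p = 0.0217). Its UMIs numbered 169, 56, 3 and 6, in 21 of 53, 16 of 31, 2 of 17 and 3 of 12 cells. The same fit in CD4 T cells called 10 of 7306 genes (0.137%), 7 higher (0.0958%) and 3 lower (0.0411%), and that in NK/ILC1 cells called 3 of 3470, all higher (0.0865%). In CD4 T cells Rgcc fell as well (-1.74, edgeR adjusted p = 0.012), and in NK/ILC1 cells it gave -0.94 (edgeR adjusted p = 0.876). The difference of the changes in ILC2 and CD4 T cells was -1.39 (edgeR adjusted p = 0.96). The call was lost without the Lyz2-rich barcodes (-3.05, edgeR adjusted p = 0.0899) and with Gata3 not required (-2.18, edgeR adjusted p = 0.251).

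Cebpb, a transcription factor that responds to inflammation and glucocorticoids (chromosome 2, 167688915 to 167690418), rose from 301 and 355 CPM to 1049 and 1243 CPM (log2 1.81, SE 0.30, edgeR adjusted p = 0.0339). Of its 50 UMIs in stress 1, 37 came from the Lyz2-rich barcode, and in stress 2 the 2 highest cells gave 31 and 24 of 82. Without both Lyz2-rich barcodes the change was 1.43 (edgeR adjusted p = 0.469), and without the stress 1 barcode alone, the marked doublet, it was 1.38 (edgeR adjusted p = 0.265). Without control 1 the call was lost as well (1.68, edgeR adjusted p = 0.0889), and so it was with Gata3 not required (1.37, edgeR adjusted p = 0.251) and at up to 25% mitochondrial UMIs (1.78, edgeR adjusted p = 0.0575). Igha, the constant gene of IgA, rose from 131 and 90.8 to 609 and 622 CPM (2.43, SE 0.32, edgeR adjusted p = 0.0115). IgA is made by plasma cells, and the share of kept barcodes that met the plasma cell rule was higher in both stress libraries, as given above. In the same libraries Igha rose in CD4 T cells (2.98, edgeR adjusted p = 0.0195) and in NK/ILC1 cells (1.76, edgeR adjusted p = 0.0357). No ILC2 held more than 7 Igha UMIs, and the call was lost with Gata3 not required (1.92, edgeR adjusted p = 0.115). With immunoglobulin and T cell receptor genes left out of the fit, 0 of 1251 genes were called, 79 had an unadjusted p under 0.05, and Rgcc and Cebpb stood at edgeR adjusted p of 0.0531 and 0.0578.

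Other genes with the smallest p did not pass, though some did under alternatives. Rrad passed in 8 of 15 and Fos in 7 of 15, both with DESeq2, with no filter and with the replicate block. Jchain passed in 5 of 14, Myo6 in 4 of 14, Mxd1 in 3 of 15, H2-T23 in 2 of 15, Cited2 in 2 of 13, and Bst2, Jak2, Ly6a and Pura in 1 each. Among those higher under stress, Fos, an immediate early transcription factor, stood at 892, 652, 2099 and 1986 CPM (log2 1.40, SE 0.27, edgeR adjusted p = 0.0971), and its highest cells gave 49 of 100 UMIs in stress 1 and 70 of 131 in stress 2. The 49 came from the Lyz2-rich barcode, and without the 2 such barcodes the change was 1.10 (edgeR adjusted p = 0.279). Rrad, a small GTPase, stood at 148, 173, 357 and 1016 CPM (2.13), with 47 of 67 UMIs of stress 2 in 1 cell. H2-T23, a nonclassical class I molecule, was spread more evenly, at 181, 173, 441 and 485 CPM (1.38, SE 0.30, edgeR adjusted p = 0.115) with at most 8 UMIs in a cell. Neat1, Bst2, Jak2, Ly6a and Mxd1 gave log2 changes between 1.12 and 1.53, and Jchain, a plasma cell transcript, 2.49. Among those lower under stress, Pura, a nucleic acid-binding protein, had 30, 22, 2 and 2 UMIs (-2.25, SE 0.53, edgeR adjusted p = 0.181). Cited2, a transcriptional coregulator, had 27, 29, 1 and 3 UMIs (-2.38, SE 0.58, edgeR adjusted p = 0.207), and the motor protein Myo6 had 28, 19, 2 and 0. Pnn, Taf1d, Lgals1, Selenof and Swi5 gave changes between -1.57 and -0.998. In each of these genes and in Rgcc and Cebpb the groups did not overlap in CPM. A choice by the smallest p favours such genes, so this is no separate result. Separation of 2 against 2 libraries has a two-sided exact permutation p of 0.333, and the share of all tested genes without overlap was not counted.

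**Figure D4:**
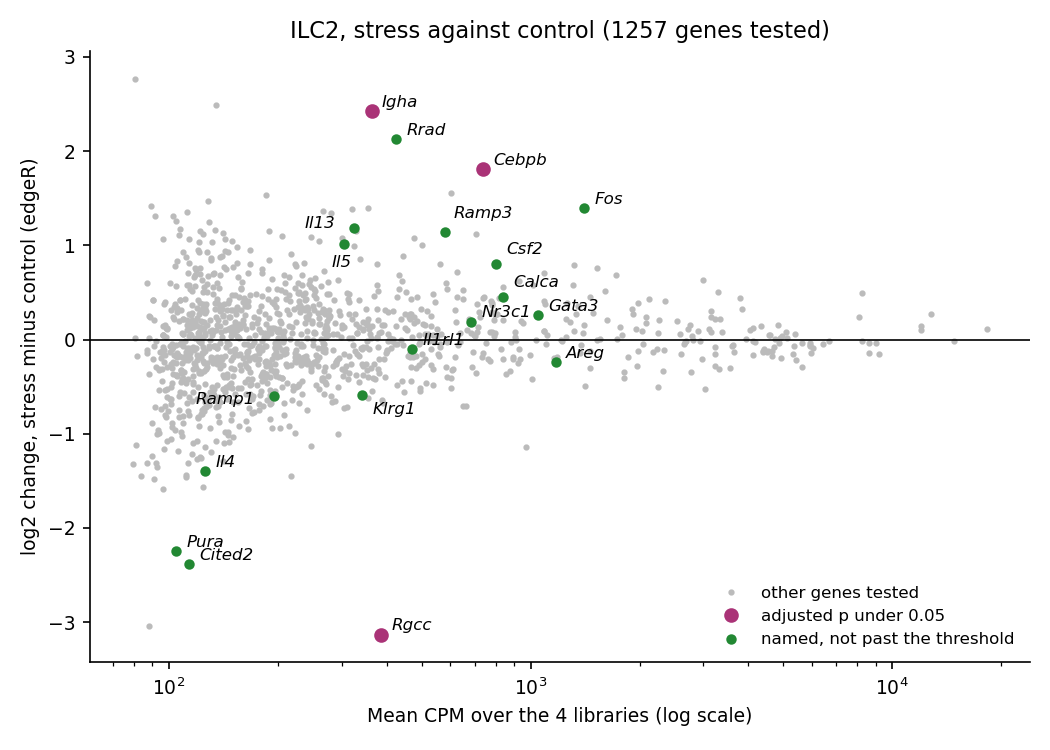
log2 change of stress against control in ILC2 (vertical) against the mean CPM over the 4 libraries (horizontal, logarithmic) for the 1257 genes tested. Rgcc, Cebpb and Igha passed the threshold, and the type 2 products and receptor genes named in green did not.

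The remaining lists held no called gene under stress. Of 12 immediate early genes tested of 15, 10 were positive and 2 negative, with a median log2 change of 0.17. The 9 tested alarmin and cytokine receptors outside the rule had a median of 0.32, with Il7r at -0.20 and Il2ra at 0.32, and the 11 transcription factors a median of 0.09, with Rora at 0.44 and Nfkb1 at 0.27. The 10 migration and residency genes ran from -0.59 (Klrg1) to 0.67, with a median of 0.18. Survival genes had 3 tested of 12 and all 3 were negative, between -0.35 and -0.17. The 5 interferon response genes tested had a median of 0.59. Cell cycle genes were near absent in ILC2 of either group, with 0 UMIs of Mki67 and 1, 0, 2 and 1 of Top2a, and 0 of the 10 passed the filter. The difference between the stress change in ILC2 and that in CD4 T cells was tested for 3554 genes and 0 were called (0%), with 165 at an unadjusted p under 0.05. Rrad came closest of the genes named here (3.06, edgeR adjusted p = 0.0566). DESeq2 and edgeR with other size factors each called 1 gene, Rrad.

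The comparison with NK/ILC1 cells, the other innate lymphocytes of the sort, asks what sets ILC2 apart from their nearest relatives. It used 251 NK/ILC1 cells, with the library as a block, and edgeR called 574 of 2564 genes (22.4%), 319 higher in ILC2 (12.4%) and 255 lower (9.95%). Hs3st1 (chromosome 5, 39613935 to 39755475) had 404 UMIs in ILC2 and 1 in NK/ILC1 cells, a ratio of 886 in CPM with a 95% counting interval from 158 to 35067. Il4 had 67 UMIs in ILC2 and 0 in NK/ILC1 cells, at least 49.0-fold higher against a floor of 3 UMIs over the class. The growth factor Bmp2 had 82 UMIs against 1 and the amino acid transporter Slc7a8 59 against 1, with ratios of 180 (31.4 to 7186) and 129 (22.3 to 5194). Ramp3 stood at 22, 0, 0 and 8.67 CPM in NK/ILC1 cells (log2 difference 6.12, SE 0.56, edgeR adjusted p = 2.67e-05), and Ramp1 was higher in ILC2 as well (2.32, SE 0.32, edgeR adjusted p = 3.87e-05). The other genes with the largest differences were Ly6c1, the phosphatase Ptpn13 (6.77), the ubiquitin ligase Rnf128, the lysophospholipid acyltransferase Lpcat2 (4.77) and Eepd1 (4.74).

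Cytotoxic and killer receptor genes were among those with the largest differences on the lower side. This does not hold for every gene of the kind. Klrg1 was higher in ILC2 (log2 3.47 to 4.51 over 7 alternatives), and perforin (Prf1) had 3 UMIs in ILC2 against 359 in NK/ILC1 cells. Xcl1, a chemokine for dendritic cells, stood at 2302, 2242, 1407 and 1370 CPM in NK/ILC1 cells and had 0 UMIs in ILC2, at least 262-fold lower. Gzma was at least 263-fold, Gzmb 130-fold and Gzmc 98.7-fold lower, all 3 granzymes at 0 UMIs in ILC2. The receptors Klrd1 and Klrc1, the surface proteins Ms4a4b and Cd7 and the death ligand Fasl were also at 0, with lower bounds between 22.8-fold and 120-fold. Ccl5, a chemokine of effector lymphocytes, had 6 UMIs in ILC2 (-8.32, SE 0.23, edgeR adjusted p = 6.45e-13). Among cytokine receptors the order also turned: Il2ra was higher in ILC2 (2.18, edgeR adjusted p = 9.85e-06) and Il2rb lower (-2.46, edgeR adjusted p = 7.93e-07). Il18r1, the receptor for IL-18, was lower (-3.62), and Cysltr1, the receptor for cysteinyl leukotrienes, was higher (4.70, SE 0.39, edgeR adjusted p = 1.72e-07).

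**Figure D5:**
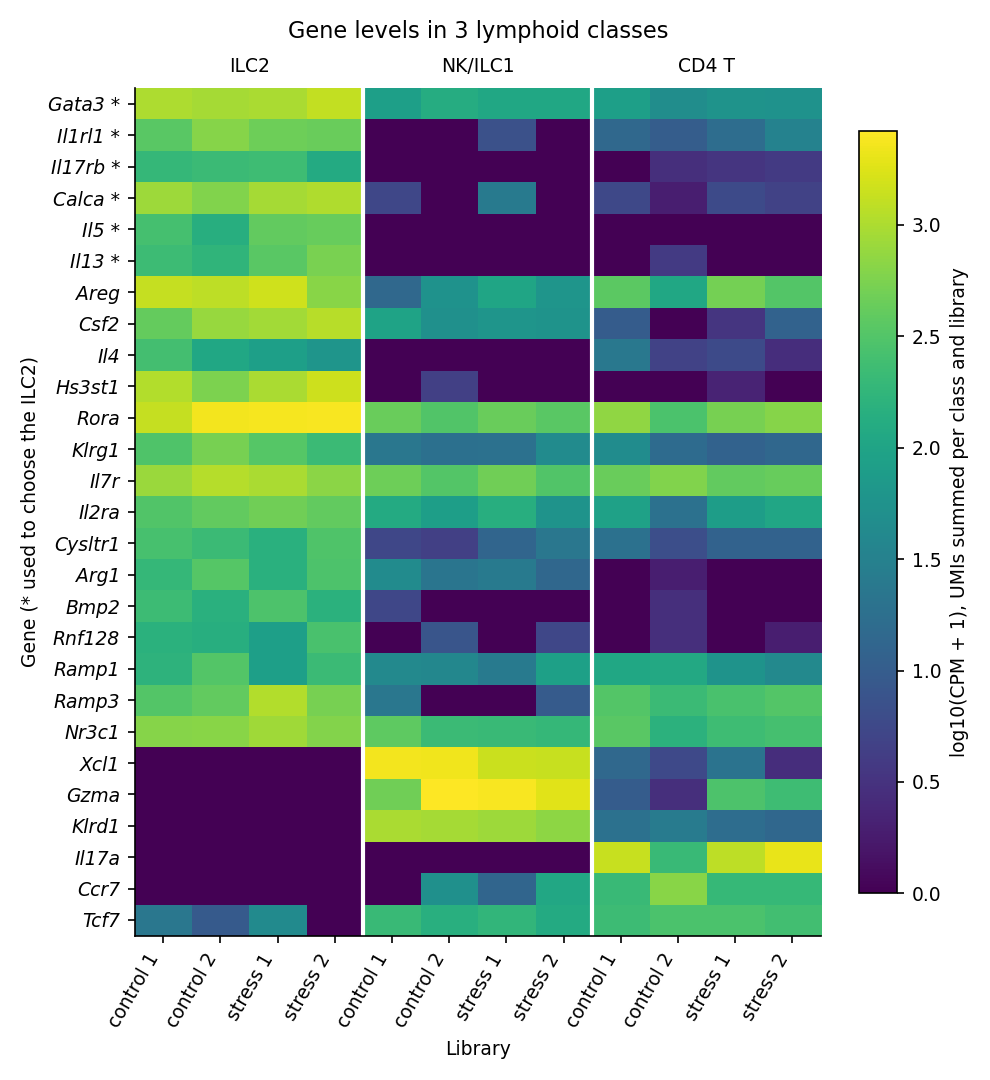
Levels of 27 genes in ILC2, NK/ILC1 and CD4 T cells of each library, as log10 of CPM + 1 (colour), with the genes used to choose ILC2 marked by an asterisk. Hs3st1, Il4, Bmp2 and Rnf128 are high in ILC2 and low in both other classes, Xcl1, Gzma and Klrd1 are at 0 in ILC2, and Il17a and Ccr7 are seen mainly in CD4 T cells.

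The comparison with CD4 T cells asks how ILC2 differ from adaptive lymphocytes of the same sort. It used 807 CD4 T cells, with at least 2 UMIs of Cd3e and Cd3d, at least 1 of Cd4 and 0 of Cd8a and Cd8b1. These cells held 0 Il5 and 3 Il13 UMIs, against 3719 of Il17a and 1928 of Il22. edgeR called 590 of 2831 genes (20.8%), 327 higher in ILC2 (11.6%) and 263 lower (9.29%). Hs3st1 had 1 UMI in CD4 T cells, a ratio of 3103 (554 to 122861). Arg1, which breaks down arginine, had 101 UMIs in ILC2 and 1 in CD4 T cells, a ratio of 776 (136 to 30940). The secretory GTPase Rab27b and the adhesion protein Igsf5 had 0 UMIs in CD4 T cells, which makes ILC2 at least 143-fold and 115-fold higher. Hes1, a target of Notch signalling, stood at 974, 669, 483 and 925 CPM in ILC2 (log2 difference 6.24, SE 0.27, edgeR adjusted p = 1.96e-19), and it was also higher than in NK/ILC1 cells (4.12). Csf2 was higher by 7.69 (SE 0.47, edgeR adjusted p = 5.32e-07), Areg by 2.17 (SE 0.36, edgeR adjusted p = 0.00317) and Il4 by 4.37 (SE 0.52, edgeR adjusted p = 2.42e-08). The rest of the 10 largest were Bmp2, Ccdc184, Rnf128 and Slc7a8.

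On the other side, Il17a stood at 1381, 208, 1212 and 2013 CPM in CD4 T cells and had 0 UMIs in ILC2, at least 161-fold lower. The lymph node homing receptor Ccr7 was at least 48.3-fold lower, and the T cell genes Slamf6, Sh2d1a, Tnfsf8, Izumo1r, Hopx, Ms4a4b and Gm8369 were at 0 UMIs, with lower bounds between 21.7-fold and 80.6-fold. Gramd3 had 1 UMI in ILC2. Icos, a costimulatory receptor, was lower than in CD4 T cells (-1.12, SE 0.22, edgeR adjusted p = 0.000216) and higher than in NK/ILC1 cells (1.66, SE 0.28, edgeR adjusted p = 0.000299). Bcl11b, a transcription factor of T cells and ILC2, took the same middle place, at -1.12 and 1.58. Tcf7, which acts in progenitors and memory T cells, was lower than in either (-3.71 and -3.11).

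The lists were counted in both comparisons beside the shares of all genes called higher (12.4% against NK/ILC1 and 11.6% against CD4 T cells) and lower (9.95 and 9.29%). Of the 17 type 2 products outside the rule, 8 passed the filter against NK/ILC1 cells with 6 higher and 1 lower, and 7 against CD4 T cells with 5 higher and 1 lower. Nr3c1 was higher than in NK/ILC1 cells (1.67, SE 0.23, edgeR adjusted p = 3.87e-05) and than in CD4 T cells (1.69, SE 0.21, edgeR adjusted p = 5.7e-08), and in each of the 4 libraries ILC2 had the highest CPM of the 3 classes. Ramp3 was higher than in CD4 T cells by 1.09 (SE 0.25, edgeR adjusted p = 0.00297), which held it at 217 to 321 CPM, and Ramp1 by 1.51 (SE 0.29, edgeR adjusted p = 0.000179). Of the 15 immediate early genes, 13 were tested and 12 were higher than in CD4 T cells (Fosb by 3.07, Nr4a1 by 2.61, Fos by 2.06), and 4 of 13 were higher than in NK/ILC1 cells (Fosb by 1.99, Nr4a1 by 1.28). Immediate early genes also respond to tissue digestion and sorting, and their part in this was not tested. Survival genes went the other way, with 4 of 6 tested lower than in NK/ILC1 cells (Bcl2, Bcl2a1b, Bcl2a1d and Bcl2l11, -2.49 to -1.50) and 3 of 6 lower than in CD4 T cells. Several other lists had genes called in both directions. Alarmin and cytokine receptors had 5 higher and 3 lower of 11 tested against NK/ILC1 cells, and 5 and 2 of 11 against CD4 T cells. Transcription factors had 6 and 1 of 15, and 5 and 3 of 15. Inhibitory and costimulatory receptors had 0 and 3 of 5, and 2 and 4 of 7. The glucocorticoid list had 2 and 0 of 8, and 4 and 0 of 9, so no called gene of it was lower in ILC2. Migration and residency genes had 4 and 0 of 11, and 4 and 3 of 14. Among single members, Nfkb1 (2.13 and 2.32), Rora (2.63 and 2.23) and the costimulatory receptor Tnfrsf18 (1.66 and 1.56) were higher in both. The medians over all genes tested outside the rules were -0.03 in either comparison. These list members were chosen with earlier results of these data known.

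Cells of a class were compared as sums, so fewer positive cells and less RNA per positive cell cannot be told apart except where counts of cells are given. With 12 to 53 cells in a library, a transcript seen in few cells moved with 1 of them, as for Il13 and Rrad in stress 2.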

How the data were processed

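Single-cell RNA-seq was deposited as 1 count matrix per library. The authors deposited raw UMI counts per gene and barcode, not normalised, for 31053 genes. The submitters' processing notes name Cell Ranger 5 and 5.0 and build mm10, while the matrix header names software 3.1.0. No barcode had under 500 UMIs, so free RNA could not be measured in empty droplets. Members and gene lists were chosen with earlier results of these data known.

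UMIs were summed per library and class and fitted with edgeR 4.0.16 (R 4.3.3; TMM, filterByExpr, quasi-likelihood test with robust option, p adjusted by Benjamini-Hochberg, threshold 0.05), with DESeq2 1.42.0 as the alternative. SE is the log2 change divided by the root of F. CPM is unscaled. Named genes were the listed ones, the 10 in each direction with the smallest p under stress (mean of at least 50 CPM), and the 10 with the largest fold in each class comparison (at least 100 CPM, same direction in 4 libraries), without rule, receptor-segment and mitochondrial genes. Doublets were scored with Scrublet in scanpy 1.11.5 (0.8% expected per 1000 barcodes) and kept, and 1 ILC2, in stress 1, was marked. Alternatives were other size factors, no filter, a replicate block, libraries left out and other member rules. Thinning used seed 1. Results for 2 genes that these rules select are not reported here.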

Additional observations from a re-analysis of the deposited data

How the results depend on the processing

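The share of ILC2 was lower in both stress libraries under all 13 alternatives, with a log2 ratio between -3.07 and -0.61 (-3.07 to -1.20 with a library left out). Called genes under stress, 3 in the main fit, numbered 3 with other size factors and at 25% mitochondrial UMIs, 11 with no filter, 5 with DESeq2, 5 without marked doublets, 5 with a stricter signature, 7 with equal cells, 1 with Gata3 not required (Retnla), 1 without Lyz2-rich barcodes (Igha, added after seeing the data) and 0 without immunoglobulin and T cell receptor genes. Leaving out a library gave 5 to 24. The replicate block gave 13. The labels' numbers share only a number: deviations of same-numbered libraries correlated at 0.26, which with 2 libraries a group is 1 value. Ramp3 passed with the block and without stress 2.

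Areg (-0.24) changed sign without stress 2, ran from -0.91 to 0.19 with a library left out, and changed sign at 25% mitochondrial UMIs (0.083). Against NK/ILC1 cells DESeq2 called 372 genes and the other alternatives 400 to 727, and against CD4 T cells 424 to 834. The difference of changes from CD4 T cells, 0 genes, gave 1 with other size factors, 1 with DESeq2, 4 with no filter and 6 to 30 with a library left out. Depth limits all of this: the stress ILC2 held 47647 and 65945 UMIs, and 0 of 113 cells allows a share of up to 2.65%.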
